A study of Mus musculus with 2 samples.

Results

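The genes described here are amino acid transporters of 6 solute carrier families, taken as every gene in the count files whose symbol is Slc1a, Slc3a, Slc7a, Slc36a, Slc38a or Slc43a followed by a number. This rule used names alone and found 42 of 23284 genes, with 7 in Slc1, 2 in Slc3, 15 in Slc7, 4 in Slc36, 11 in Slc38 and 3 in Slc43. RNA came from primary hepatocytes, liver cells taken from C57BL/6 mice and kept in culture. One group received control lentivirus and the other a lentivirus expressing an shRNA against JMJD3, the H3K27 demethylase encoded by Kdm6b. Each group is 1 library from cells pooled from 5 mice. Infection began 24 h after plating and lasted 48 h, and both groups then received 5 mM glucose and 10 µM forskolin (Fsk), which raises cyclic AMP, for 6 h to imitate fasting. Uninfected cells and cells without forskolin were not analysed here, and the labels do not say how many shRNA sequences were used.

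Amino acids cross membranes mainly through carriers, and the liver takes them up for protein synthesis, gluconeogenesis and urea formation. Slc1 carriers bring in glutamate, aspartate or small neutral amino acids together with sodium. Slc7 holds the cationic amino acid transporters, which carry arginine, lysine and ornithine, and the light chains, which work only when joined to a heavy chain of the Slc3 family. Slc36 includes carriers that move small neutral amino acids with protons. Slc38 carriers move neutral amino acids with sodium (systems A and N) or sit on lysosomes, and the Slc43 members LAT3 and LAT4 carry large neutral amino acids.

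Counts totalled 11099562 in control and 18334366 in knockdown. Levels are counts scaled to library size (CPM) after TMM scaling, which adjusts for library make-up. Levels of transporters are compared between genes only as CPM per kb of exon. Sums of marker genes, and the most abundant gene of each further gene list, are by CPM, which also depends on exon length. A gene was taken as measured when its mean over both libraries was at least 1 CPM, which 26 of the 42 transporters and 12607 of all genes were. With 1 library per group there is no replicate check and no p-value of its own for any difference. A gene is said to pass the rule of size, as higher or lower, where its knockdown over control ratio was at least 1.5-fold from 1 (0.58 on the log2 scale) and its exact 95% binomial interval excluded 1. These intervals cover counting error only. Kdm6b itself was at 90.7 CPM in control and 33.0 CPM in knockdown, a log2 ratio of -1.46 (-1.60 to -1.31). Hepatocyte markers were present in both libraries. Of these, 6 of 10 passed as lower and 1 as higher, against 12.8% and 15.3% of all measured genes. Their summed level was 12049 CPM in control and 8554 CPM in knockdown. None of the 10 was at 0, though Apoa1 was at only 3.29 and 2.93 CPM. Cps1, the lowest by ratio, was at 222.9 CPM in control and 3.87 CPM in knockdown, a log2 ratio of -5.85. Trf, the most abundant, was at 4282 and 4254 CPM, so it held much of both sums. Cholangiocyte markers, mostly Spp1, summed to 8100 and 8434 CPM with 4 of 7 measured genes passing as higher, against 15.3% of all measured genes. Stellate markers summed to 250.3 and 233.5 CPM with 3 of 8 passing as lower, against 12.8% of all measured genes. Endothelial markers summed to 63.3 and 60.7 CPM with 1 of 9 higher and 2 lower, against 15.3% and 12.8% of all measured genes. Macrophage markers summed to 29.3 and 31.3 CPM with Clec4f and Timd4 at 0 and 0 of 7 passing, against the same shares. Blood and lymphoid markers summed to 2.58 and 2.37 CPM with Cd3e, Hbb-b1 and Hba-a1 at 0. The part of cell make-up in the results below was not tested, and fewer cells of a type cannot be told apart from less RNA per cell.

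The most abundant transporter of the control library, Slc7a2, was 11.05-fold lower in the knockdown library, and the second, Slc38a4, was 3.35-fold lower. Slc7a1, the close relative of Slc7a2, was 6.27-fold higher. In all, 4 of 26 measured transporters passed as higher (Slc7a1, Slc1a4, Slc7a5 and Slc38a7) and 3 as lower (Slc7a2, Slc38a4 and Slc43a2). Across all measured genes 15.3% passed as higher and 12.8% as lower, so the transporters' shares of 15.4% and 11.5% are near the background and are not a result about transporters as a set. The median log2 ratio was -0.14 over the transporters and -0.004 over all measured genes, and the medians of the absolute log2 ratio were 0.26 and 0.35. The result lies in which carriers differed and how abundant they were.

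**Figure D1:**
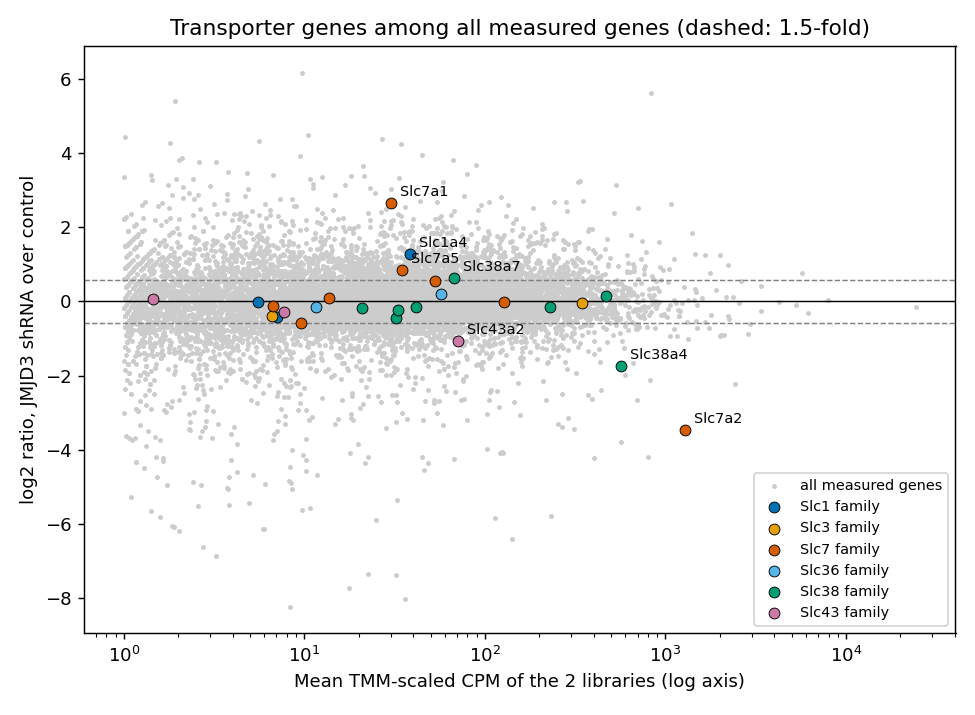
Each point is 1 measured gene, with the mean TMM-scaled CPM of the 2 libraries on the log x axis and the log2 ratio of knockdown over control on the y axis; the 26 transporters are coloured by family, the 7 that passed are named, and dashed lines mark 1.5-fold. Slc7a2 and Slc38a4 lie far below the bulk of genes of their abundance, Slc7a1 lies above it, and most other transporters lie between the dashed lines.

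The authors' deposited table of the comparison holds the same 26 transporters. At an adjusted p-value threshold of 0.05 the authors' deposited table calls 4 of them higher and 3 lower, against 14.6% and 11.8% of its 12838 genes. These are the same 7 genes that passed here, and the sign of the fold change was the same in 26 of 26. Both sets of values come from the same 2 libraries, and for Slc7a1 the log2 values differ by only 0.0013. This likeness was therefore largely fixed in advance and is no independent support. The authors' deposited table gives Slc7a2 an adjusted p-value of 1.48e-50, Slc7a1 3.29e-23, Slc38a4 7.83e-15, Slc1a4 5.23e-07, Slc43a2 1.21e-05, Slc7a5 0.00185 and Slc38a7 0.0195. The test behind those values is not given in the sources used here. Neither group had a replicate library, so those p-values cannot measure variation between cultures or animals. They and the calls made from them are therefore no evidence that a difference would recur.

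Stretches before the transcription start are shown for Slc7a1 and Slc38a4, the carriers with the largest difference in each direction among those with a sequence entry, and for Slc7a11, whose start region holds an amino acid response motif 2 times. They are the 150 bases before each start that RefSeq lists, from the table built on GRCm38.p6, 5′ to 3′ along the gene, so their positions do not match the mm9 positions given elsewhere. Capitals mark 3 motifs, searched on both strands in the 250 bases before each start: TTGCATCA, the core of the element bound by ATF4 and C/EBP factors in the amino acid response, TGACGTCA, the full cyclic AMP response element, and TGAGTCA, the AP-1 site. No 2 marked matches overlap.
Slc7a11 (chr3:50443614-50443763, minus strand): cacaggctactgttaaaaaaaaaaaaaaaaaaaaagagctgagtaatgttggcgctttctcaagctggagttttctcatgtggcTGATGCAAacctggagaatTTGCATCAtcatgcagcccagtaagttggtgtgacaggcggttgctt
Slc7a1, start 1 (chr5:148392816-148392965, minus strand): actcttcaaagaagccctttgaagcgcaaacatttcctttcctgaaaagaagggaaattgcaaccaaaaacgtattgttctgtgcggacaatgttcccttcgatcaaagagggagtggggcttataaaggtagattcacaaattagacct
Slc7a1, start 2 (chr5:148399905-148400054, minus strand): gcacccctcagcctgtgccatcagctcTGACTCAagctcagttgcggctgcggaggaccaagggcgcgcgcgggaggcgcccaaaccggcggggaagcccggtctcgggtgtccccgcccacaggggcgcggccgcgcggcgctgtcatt
Slc38a4, start 1 (chr15:97020360-97020509, minus strand): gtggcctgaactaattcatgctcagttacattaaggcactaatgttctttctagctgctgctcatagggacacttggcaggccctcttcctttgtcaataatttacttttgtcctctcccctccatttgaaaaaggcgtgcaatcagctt
Slc38a4, start 2 (chr15:97031214-97031363, minus strand): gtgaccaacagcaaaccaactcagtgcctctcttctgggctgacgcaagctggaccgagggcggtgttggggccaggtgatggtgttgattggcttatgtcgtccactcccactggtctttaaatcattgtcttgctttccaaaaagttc
Slc38a4, start 3 (chr15:97055957-97056106, minus strand): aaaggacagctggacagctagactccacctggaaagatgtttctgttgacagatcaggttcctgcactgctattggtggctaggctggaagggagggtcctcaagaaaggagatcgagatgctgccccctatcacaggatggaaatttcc

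The Slc7a11 stretch holds TTGCATCA at 66 to 59 and at 47 to 40 bases before the start, the first as its reverse complement. Of 32851 start regions in the table, 0.791% hold this motif and 2 hold it at least 2 times. TTGCATCA also lies 243 to 236 bases before a start of Slc7a7, which did not pass. TGAGTCA lies 123 to 117 bases before the second Slc7a1 start and 140 to 134 bases before a start of Slc3a1, which did not pass, and is held by 4.46% of start regions. That Slc7a1 stretch is 73.3% G or C with 18 CpG dinucleotides, against 41.3% and 4 at the other Slc7a1 start, and 44.0% to 52.0% and 1 to 4 at the Slc38a4 starts. None of the 3 motifs was found in the 250 bases before the Slc38a4 starts, and TGACGTCA, in 1.55% of start regions, was found among the transporters only before Slc38a6, which did not pass either. A match describes the letters and shows no binding, and the counts do not tell which start was used. In all, 31 of the 42 transporters, 18 of them measured, had an entry.

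Among the cationic carriers, the library from JMJD3 shRNA cells held far less Slc7a2 and more Slc7a1. Slc7a2 encodes CAT-2, whose main liver form takes up arginine and other cationic amino acids with low affinity and high capacity. It was at 2349 CPM in control, from 26396 counts, and at 212.6 CPM in knockdown, from 3849 counts. The control level is far above the knockdown level, with a log2 ratio of -3.47 (-3.51 to -3.42), which ranked 84 from the lowest among 12607 measured genes. The gene spans chr8:41947721-42007424 in mm9 on the plus strand, and the counts join its splice forms. Slc7a1 encodes CAT-1, the widely expressed form that is scarce in adult hepatocytes. It was at 8.27 CPM in control, from 93 counts, and at 51.9 CPM in knockdown, from 940 counts, a log2 ratio of 2.65 (2.34 to 2.97). This ratio ranked 69 from the highest, and the gene spans chr5:149138986-149211480 in mm9 on the minus strand.

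Per kb of exon, Slc7a2 stood at 299 CPM and Slc7a1 at 1.15 CPM in control, a 259-fold excess of Slc7a2. In the knockdown library they stood at 27.1 and 7.23 CPM per kb, an excess of 3.74-fold. This balance was 69.3-fold lower in the knockdown library, with a 95% counting interval of 55.9 to 86.0, and it does not depend on how the libraries are scaled to each other. This and the other balances between genes were chosen after their counts were seen. Slc7a2 therefore was still the more abundant of the pair. The third cationic carrier, Slc7a3 (CAT-3), was at 7.03 and 6.41 CPM, a log2 ratio of -0.13 with an interval that included 0. Slc7a4, a relative of the CAT proteins for which transport of cationic amino acids has not been established, was at 11.5 and 7.73 CPM. Its log2 ratio of -0.57 (-0.93 to -0.21) lay just outside the rule of size. The summed level of the 3 CAT genes was 303 CPM per kb in control and 37.0 CPM per kb in knockdown.

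**Figure D2:**
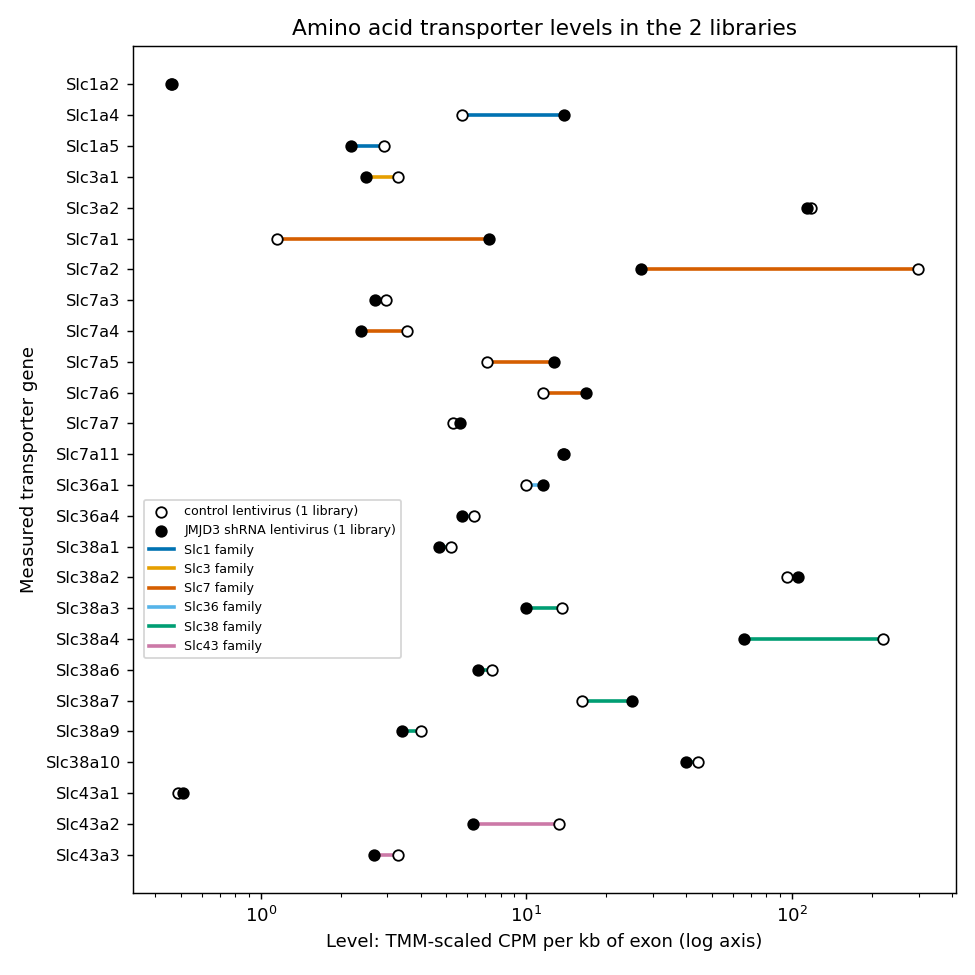
Open points show the control library and filled points the knockdown library, with the level in TMM-scaled CPM per kb of exon on a log axis and the 26 measured transporters in rows, joined by a line coloured by family. Slc7a2 is at 299 and 27.1, Slc7a1 at 1.15 and 7.23, while Slc3a2 (119 and 114) and Slc38a2 (96.1 and 105.9) lie close together.

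The heavy chain shared by most light chains did not pass the rule, while 1 light chain passed as higher. Slc3a2, the CD98 heavy chain, was at 350.6 CPM in control and 337.6 CPM in knockdown, a log2 ratio of -0.05 (-0.11 to 0.00). Per kb it stood behind Slc7a2 and Slc38a4 in control, and in the knockdown library, where both were lower, it stood beside Slc38a2 at the top, too close for the order of the pair to be settled. Slc7a5 (LAT1), which exchanges leucine and other large neutral amino acids, was at 25.0 CPM in control and 44.7 CPM in knockdown, from 281 and 809 counts. The knockdown level was the higher, at 1.79-fold (1.56 to 2.05), and the gene spans chr8:124405046-124431586 in mm9 on the minus strand. Slc7a6 (y+LAT2), which exports cationic in return for neutral amino acids, was at 43.1 and 62.7 CPM. Its log2 ratio of 0.54 (0.39 to 0.70) was just short of the rule. Slc7a7 (y+LAT1), its relative of epithelia and macrophages, was at 13.3 and 14.1 CPM with an interval that included no difference. Part of its exons, 9.10% of their length, overlaps those of Oxa1l, so its count is uncertain.

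Slc7a11 (xCT) brings in cystine for glutathione synthesis in exchange for glutamate, and it is a known target of ATF4. It was at 128.3 CPM in control and 127.0 CPM in knockdown, a log2 ratio of -0.01 (-0.11 to 0.08), so its counts did not differ beyond counting error. Its log2 ratio was -0.43 after the dependence of ratios on exon length, fitted over all measured genes, was taken out (the exon-length trend). Slc7a11 and Slc7a5 use the same heavy chain and did not differ alike: per kb, Slc7a11 was 1.95-fold the level of Slc7a5 in control and 1.08-fold in knockdown. The summed light chains that pair with Slc3a2 stood at 0.321 of its level per kb in control and 0.430 in knockdown. Slc3a1, the rBAT heavy chain of kidney and intestine, was at 7.56 and 5.74 CPM with an interval that included no difference, and 26.3% of its exon length overlaps that of Prepl. Its partner Slc7a9 had 0 counts in control and 1 in knockdown. Slc7a8 (LAT2) had 8 counts in each library, Slc7a15 had 7 and 9, and Slc7a10 had 0 and 1. Slc7a12, Slc7a13 and Slc7a14 had 0 counts in both.

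In the Slc38 family, the system A carriers differed from one another. Slc38a4 (SNAT4), an imprinted gene that is the liver-enriched system A carrier, was at 870 CPM in control and 259.6 CPM in knockdown, from 9780 and 4700 counts. The knockdown level was the lower, with a log2 ratio of -1.75 (-1.80 to -1.69), which ranked 320 from the lowest. Slc38a2 (SNAT2), the system A carrier induced when amino acids are scarce, was at 444.6 and 489.9 CPM. Its log2 ratio of 0.14 (0.09 to 0.19) did not pass the rule, and with the exon-length trend removed it was -0.02. Slc38a1 (SNAT1) was at 43.7 and 39.2 CPM with an interval that included no difference.

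The 3 system A genes lie side by side on the minus strand of chromosome 15 in mm9, in the order Slc38a1, Slc38a2, Slc38a4. No other gene of the files lies wholly within the 44.5 kb between the first and the second or in the 295 kb between the second and the third. Slc38a4 spans chr15:96825254-96886387. So the difference stood at 1 gene of this cluster, and the neighbours on its side did not pass. Per kb, Slc38a4 was 2.30-fold the level of Slc38a2 in control and 0.624 of it in knockdown, an exchange of their order. This balance was 3.69-fold lower in the knockdown library, with a counting interval of 3.52 to 3.88.

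The measured system N and lysosomal members of Slc38 differed less than Slc38a4. Slc38a3 (SNAT3), the glutamine and histidine carrier of system N in hepatocytes, was at 37.0 and 27.3 CPM, a log2 ratio of -0.44 (-0.63 to -0.25) that did not pass. Its relative Slc38a5 (SNAT5) had 0 counts in both libraries. Slc38a7 (SNAT7), which exports glutamine and asparagine from lysosomes, was at 53.4 CPM in control and 82.2 CPM in knockdown. It passed as higher at log2 0.62 (0.49 to 0.76), just inside the rule, and fell short of it with upper-quartile scaling (0.57) and with the exon-length trend removed (0.56). The gene spans chr8:98359823-98377391 in mm9 on the minus strand. Slc38a9, the lysosomal arginine sensor that signals to mTORC1, was at 35.7 and 30.4 CPM, a log2 ratio of -0.23 (-0.42 to -0.04), and passed as lower, at -0.63, only with the length trend removed. Slc38a10, the most abundant of the remaining members, was at 239.5 and 216.7 CPM, and Slc38a6 at 22.0 and 19.5 CPM, neither passing. Slc38a8 had 1 count in each library and Slc38a11 had 9 and 2, both below the level taken as measured.

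**Figure D3:**
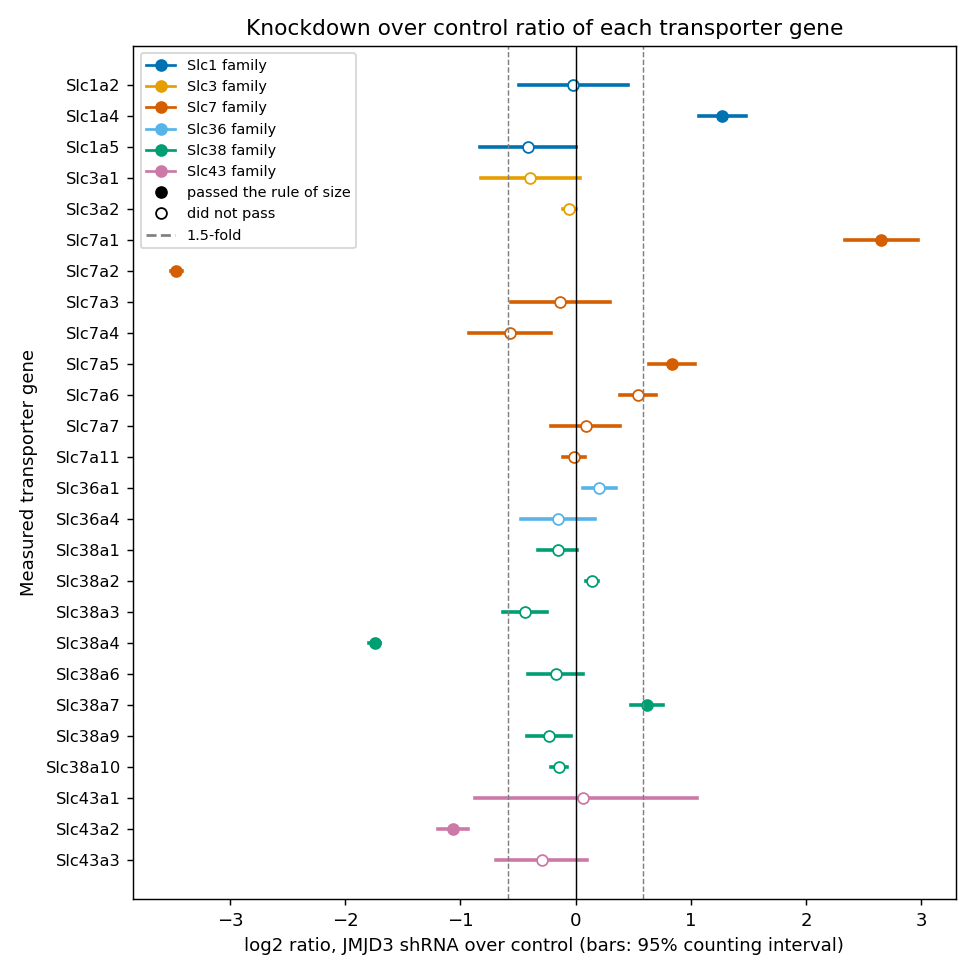
Points give the log2 ratio of knockdown over control for each of the 26 measured transporters, bars the exact 95% counting interval, and dashed lines 1.5-fold; filled points passed the rule of size and colours mark families. The 3 filled points on the left are Slc7a2 at -3.47, Slc38a4 at -1.75 and Slc43a2 at -1.06, and the 4 on the right run from Slc38a7 at 0.62 to Slc7a1 at 2.65.

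In the Slc1 family the difference stood at the neutral amino acid exchanger ASCT1. Its gene, Slc1a4, which carries serine, alanine and cysteine, was at 22.5 CPM in control and 54.3 CPM in knockdown, from 253 and 984 counts. The knockdown level was 2.41-fold the control level (2.10 to 2.78), and the gene spans chr11:20202183-20232716 in mm9 on the minus strand. Slc1a5 (ASCT2), the glutamine carrier of dividing cells, was at 8.01 and 6.02 CPM, a log2 ratio of -0.41 whose interval of -0.83 to 0.01 included no difference. Slc1a2 (GLT-1), the glutamate carrier that marks hepatocytes near the central vein, was at 5.61 and 5.52 CPM and did not pass. The other glutamate carriers, Slc1a1, Slc1a3, Slc1a6 and Slc1a7, had 0 or 1 count in control and 1 to 3 in knockdown, too few for a ratio.

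The Slc36 family held no gene that passed. Slc36a1 (PAT1), found on lysosomes and at the cell surface, was at 52.8 and 60.9 CPM, a log2 ratio of 0.21 (0.06 to 0.35). Slc36a4 (PAT4) was at 12.3 and 11.05 CPM with an interval that included no difference. Slc36a2 had 0 counts in both libraries, and Slc36a3 had 0 in control and 1 in knockdown, although both lie close to Slc36a1 on chromosome 11.

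In the Slc43 family Slc43a2 (LAT4), a sodium-independent carrier of branched-chain amino acids, phenylalanine and methionine, was lower. It was at 95.6 CPM in control and 45.7 CPM in knockdown, from 1075 and 828 counts, and the control level was 2.09-fold the knockdown level (1.91 to 2.29). The gene spans chr11:75345196-75391074 in mm9 on the plus strand. Slc7a5 and Slc43a2 both carry large neutral amino acids and differed in opposite directions. Per kb, Slc43a2 was 1.86-fold the level of Slc7a5 in control and 0.497 of it in knockdown, a balance 3.74-fold lower (3.18 to 4.40). Slc43a1 (LAT3) was at 1.42 and 1.49 CPM on 16 and 27 counts, and its wide interval of -0.88 to 1.06 leaves its direction open. Slc43a3, a relative that carries purine bases rather than amino acids, was at 8.54 and 6.96 CPM and did not pass.

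Set side by side, the families differed less in their medians than their members did among themselves. The median log2 ratio was -0.02 over 3 measured Slc1 genes, -0.23 over 2 of Slc3, 0.04 over 8 of Slc7, 0.03 over 2 of Slc36, -0.16 over 8 of Slc38 and -0.30 over 3 of Slc43. The medians of Slc7 and Slc36 lay at or below 0 with library totals alone (0.00 and -0.01) and with upper-quartile scaling (-0.01 and -0.02), so they have no direction. The standard deviation of the log2 ratio between members was 1.71 in Slc7, which holds both the lowest and the highest transporter, and 0.68 in Slc38. The passing members were 2 higher and 1 lower in Slc7, 1 and 1 in Slc38, 1 higher in Slc1, 1 lower in Slc43 and 0 in Slc3 and Slc36. With 2 to 8 genes each, these counts do not set 1 family apart from another.

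By summed level per kb, the families stood apart, and a few genes carried most of the sum. The 26 measured transporters together stood at 917 CPM per kb in control and 510 CPM per kb in knockdown, 0.556 of control (0.548 to 0.564). Without Slc7a2 and Slc38a4, a split chosen after the values were seen, the other 24 stood at 396.6 and 416.7 CPM per kb, a ratio of 1.05 (1.03 to 1.07). Over all measured genes the sum was 0.927 of control. These ratios and their intervals were taken with TMM scaling only, so a ratio this near 1 could shift with another scaling. Those 24 made up 43.3% of the transporter level in control and 81.7% in knockdown. Slc7a2 alone made up 32.6% in control and 5.31% in knockdown. The share of the whole Slc7 family was 37.6% and 17.3%, that of Slc38 44.5% and 51.3%, and that of the Slc3 heavy chains 13.3% and 22.9%. Slc1 held 0.993% and 3.23%, Slc36 1.78% and 3.38%, and Slc43 1.85% and 1.87%.

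**Figure D4:**
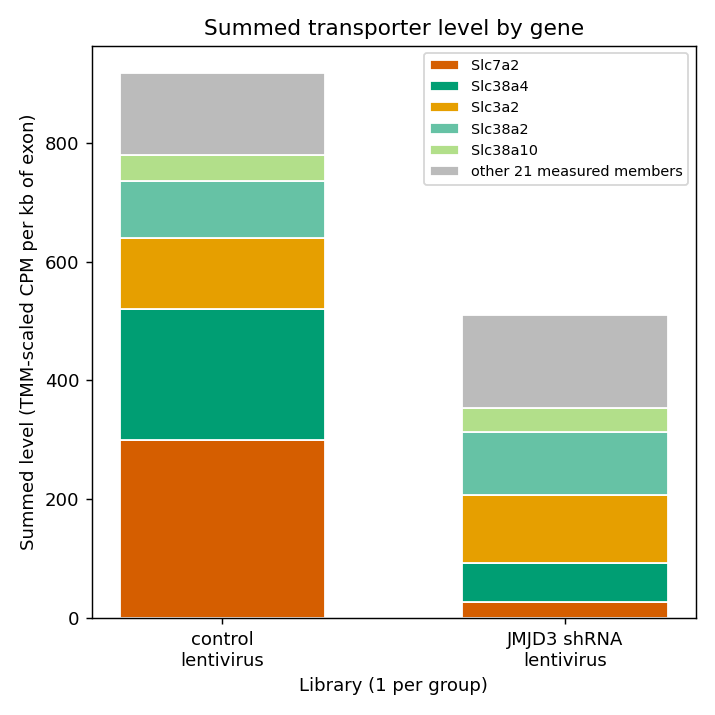
Stacked bars give the summed level of the 26 measured transporters in TMM-scaled CPM per kb of exon for the control and the knockdown library, split into the 5 most abundant genes and the other 21. The bar is 917 high in control and 510 in knockdown, and the segments of Slc7a2 and Slc38a4 are the ones that differ most.

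The order of the transporter genes by level, with the heavy chain Slc3a2 among them, changed with this. Per kb, the control library had Slc7a2 first, then Slc38a4 at 221 CPM, Slc3a2 at 119 CPM, Slc38a2 at 96.1 CPM and Slc38a10 at 44.2 CPM. The knockdown library had Slc3a2 first at 114 CPM, then Slc38a2 at 105.9 CPM, Slc38a4 at 66.02 CPM, Slc38a10 at 40.0 CPM and Slc7a2 at 27.1 CPM. With no spread between replicates, the order of near neighbours such as Slc3a2 and Slc38a2 in the knockdown library cannot be settled.

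Other transporters and enzymes that handle amino acids were taken from lists by function, chosen with earlier results of these data known. They are described only, and each count is given beside the shares of all measured genes. Among amino acid transporters of other families 8 of 21 were measured, of which 2 passed as higher and 3 as lower, against 15.3% and 12.8% of all measured genes, with a median log2 ratio of -0.11. The taurine carrier Slc6a6, the most abundant and the highest, was at 736 CPM in control and 1358 CPM in knockdown. The aromatic amino acid carrier Slc16a10, the lowest, was at 280.5 and 33.9 CPM, a log2 ratio of -3.05. Hepatic enzymes of amino acid metabolism were mostly lower: of 18 measured and reported here, 13 passed as lower and 0 as higher, against 12.8% and 15.3% of all measured genes. Their median log2 ratio was -1.30, against -0.004 for all measured genes. Glud1, glutamate dehydrogenase, was at 1791 and 880 CPM, the histidine-degrading Hal was lowest at log2 -6.15 on 132 and 3 counts, and the proline oxidase Prodh was highest at 0.35, without passing.

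Genes of the amino acid response, driven by the factor ATF4, were measured in 28 of 28 cases, of which 13 passed as higher and 1 as lower, against 15.3% and 12.8% of all measured genes. Their median log2 ratio was 0.49, against -0.004 for all measured genes. The list was chosen with earlier results known and is described only. Its most abundant member Nars, an aminoacyl-tRNA synthetase, was at 347.6 and 576 CPM, its highest, Stc2, was at log2 1.65 on 14 and 71 counts, and its lowest, Cebpb, was at -0.71. Beside it stand 5 transporters often named as ATF4 targets, picked after their values were seen. Slc7a1, Slc7a5 and Slc1a4 passed as higher, while Slc7a11 and Slc3a2 did not pass. Slc38a2, the carrier induced when amino acids are scarce, is outside this pick and did not pass either, at log2 0.14. The 5 therefore do not describe such transporters as a set. Genes of amino acid sensing by mTORC1 numbered 24, of which 1 passed as higher, against 15.3% of all measured genes, and 4 as lower, a share near the 12.8% of all measured genes, around a median of -0.09. Gatsl3, an arginine sensor, was highest at 1.02, Nprl2, of the complex that restrains mTORC1, was lowest at -0.76, and the most abundant, Rragc, was at 0.30. Genes of glutathione synthesis and turnover numbered 8, of which 3 passed as lower and 0 as higher, against 12.8% and 15.3% of all measured genes, around a median of -0.46. Gclc, the rate-limiting ligase, was at 0.02, Ggt7 was highest at 0.43, and Cbs, which starts cysteine formation from homocysteine, was lowest at -3.14.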

How the data were processed

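The authors' deposited counts are whole numbers of reads, assigned to UCSC mm9 gene models by featureCounts 1.4.6-p4 without strand from STAR alignments, per the file headers. Exon lengths come from the same deposited files. The submitters' processing notes also name edgeR, STAR 2.5.3a, Trimmomatic 0.36, bcl2fastq 2.17.1.14 and FastQC 0.11.5. No option for read pairs or multi-mapped reads is recorded, so both reads of a pair may count and intervals may be too narrow. The authors' deposited table gives log2 fold changes and average log2 CPM, with p-values whose test is not given in the sources used here.

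Groups came from sample titles. TMM factors (edgeR 4.0.16, R 4.3.3) scaled the counts, and DESeq2 1.42.0 size factors were an alternative. Log2 ratios, exact conditional binomial (Clopper-Pearson) 95% intervals (scipy 1.17.1) and the 1.5-fold rule were computed for all genes, and no ratio was formed at or under 3 counts in both libraries. Intervals of summed levels and balances are normal approximations of counting error. The ratio procedure was run on simulated counts that held only the counting error the intervals assume. That check cannot speak to variation between cultures. Measured transporters were given in both libraries and the others by their counts, and each list was described by at most 3 genes. Members and lists were chosen with earlier results of these data known. Of 27 sensing genes sought, 24 symbols were in the files. One gene of the list of hepatic amino acid enzymes is not reported here, and the list's values leave it out.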

Additional observations from a re-analysis of the deposited data

How the results depend on the processing

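Slc7a1, Slc7a2, Slc1a4, Slc7a5, Slc38a4 and Slc43a2 kept their call under all 3 other scalings and with the exon-length trend removed, Slc7a2 between -3.82 and -3.45 and Slc7a1 between 2.33 and 2.66. Slc38a7 did not, and Slc7a4 passed as lower with library totals (-0.61), upper-quartile scaling (-0.62) and the length trend removed (-0.62). Removing that trend also raised the transporters passing as lower from 3 to 5, with Slc7a4 and Slc38a9, and left 0 response genes lower. Of all 12607 measured genes, 1612 passed as lower in the main setting and 1513 with the trend removed. The trend's removal moved the Slc1 median from -0.02 to -0.41 and the Slc38 median from -0.16 to -0.39. A 2-fold rule left 2 transporters higher (Slc7a1 and Slc1a4), 0 other transporters higher, 5 response genes higher and 0 lower, and 0 sensing genes lower. Under that rule 926 of all 12607 measured genes were higher and 781 lower. At a minimum of 5 CPM 0 sensing genes were higher, against 1596 of all 10670 genes that reached it. The Slc43 median was then -0.68 in place of -0.30. Without Slc3a1 and Slc7a7, which overlap other genes, Slc7 held 16.5% and Slc38 52.2% of the knockdown level, and the Slc3 median, then Slc3a2 alone, was -0.05 in place of -0.23. The cause of these shifts was not tested beyond how each setting is built. No paired analysis was possible because each group is 1 library. Depth limits genes such as Slc43a1.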
